A study of Mus musculus with 8 samples.

Results

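The genes described here are 10 transcripts that textbooks list among the targets of NRF2, namely Hmox1, Nqo1, Slc7a11, Gclc, Gclm, Gsr, Txnrd1, Srxn1, Prdx1 and Sqstm1. They were taken by symbol from a table of 55801 genes, in which each of the 10 symbols stood on a single row, and all 10 were among the 12189 genes with a mean of at least 1 TPM (a transcript level scaled for length and for the total of the library) that entered the test. RNA was sequenced from peritoneal macrophages, the phagocytes that thioglycollate broth draws into the abdominal cavity, of male C57BL/6 mice. The mice were 6 to 8 weeks old. There were 4 groups of 2 samples, 8 in all. The NC samples received DMSO, the solvent. The LPS samples received lipopolysaccharide (LPS), an endotoxin from the outer membrane of Gram-negative bacteria, at 100 ng/ml for 4 h. The C498 samples received the compound C498 at 15 µM, and the C498+LPS samples received C498 at that dose 0.5 h before the same LPS treatment. C498 was studied as a candidate inhibitor of JAK/STAT and NF-κB signaling. The labels do not say that the 2 samples of a group came from separate animals or cultures, so a p-value measures only the spread between these samples, which may be technical.

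NRF2, encoded by Nfe2l2, is a transcription factor that in resting cells is bound by KEAP1 and handed to a CUL3 ubiquitin ligase for degradation. Electrophiles and oxidants modify cysteines of KEAP1, after which NRF2 builds up, pairs with a small MAF protein and binds antioxidant response elements near genes for glutathione synthesis, thioredoxin reduction, quinone reduction and heme breakdown. In macrophages this program is known for limiting oxidative damage during the respiratory burst.

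Matches to the core of the antioxidant response element are shown first, because the genes share this regulator by definition. Promoter windows of RefSeq (GRCm38.p6), from 250 bases before to 50 bases after a transcript start, were at hand for 7 of the 10 genes, in 9 windows. The letters TGACNNNGC, searched on both strands, occurred in 4 windows of 4 genes, while 12.4% of 32851 mouse promoters of the same length held them. The AP-1 site TGANTCA, which shares its first letters with that core, occurred in the windows of Srxn1 and Prdx1 and in 7.81% of all promoters. Below, the 150 bases just before a start are printed 5′ to 3′ on the strand of the gene for the 4 genes with a core match and for Slc7a11, the gene with the largest change in this group, with matches of either motif in capitals.
Gclm, chr3:122245407-122245556, plus strand: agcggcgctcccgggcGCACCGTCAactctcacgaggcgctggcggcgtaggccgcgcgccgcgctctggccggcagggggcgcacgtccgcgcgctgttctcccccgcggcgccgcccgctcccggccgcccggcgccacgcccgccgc
Txnrd1, chr10:82859056-82859205, plus strand: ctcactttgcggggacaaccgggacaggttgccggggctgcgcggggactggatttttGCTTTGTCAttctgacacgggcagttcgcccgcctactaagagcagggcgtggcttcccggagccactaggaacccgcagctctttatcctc
Srxn1, chr2:152105374-152105523, plus strand: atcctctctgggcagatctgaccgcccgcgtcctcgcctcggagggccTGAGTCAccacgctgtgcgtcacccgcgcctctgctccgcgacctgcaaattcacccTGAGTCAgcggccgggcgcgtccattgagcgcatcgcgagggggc
Prdx1, chr4:116685449-116685598, plus strand: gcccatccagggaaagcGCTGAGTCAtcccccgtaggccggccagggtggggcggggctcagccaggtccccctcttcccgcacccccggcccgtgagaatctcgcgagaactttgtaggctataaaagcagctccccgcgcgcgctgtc
Slc7a11, chr3:50443614-50443763, minus strand: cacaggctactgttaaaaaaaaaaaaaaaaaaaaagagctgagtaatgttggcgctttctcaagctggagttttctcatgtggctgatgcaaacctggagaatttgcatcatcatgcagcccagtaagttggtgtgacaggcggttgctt
Counted from the transcript start, the core lay at -134 to -126 in Gclm and at -92 to -84 in 1 of the 3 windows of Txnrd1. In Prdx1 it lay at -133 to -125, where it overlaps an AP-1 site at -131 to -125. The core of Srxn1 lay after the start, at 28 to 36, outside the printed stretch, and the capitals in Srxn1 mark its AP-1 sites at -102 to -96 and -45 to -39. The stretch of Slc7a11 holds no match, which says only that these letters are absent from this window. A match is a description of sequence, and binding of NRF2 was not measured here.

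Levels of the 10 genes spanned a wide range. In NC samples Prdx1 led with a mean of 3198 TPM, Sqstm1 followed with 870.5 TPM and Hmox1 with 773 TPM, and Nqo1 was lowest with 9.47 TPM. The NC levels of Txnrd1 (106 to 155 TPM), Srxn1 (109.9 to 120.3 TPM) and Gsr (106 to 123 TPM) overlapped and cannot be ordered, nor can those of Slc7a11 (8.54 to 17.4 TPM) and its neighbours Gclc (12.8 to 20.8 TPM) and Nqo1 (9.16 to 9.78 TPM). By group mean Prdx1 was highest and Nqo1 lowest throughout, although the second NC sample had less Slc7a11 than Nqo1. The mean of Slc7a11 was 12.96 TPM in NC and 162 TPM in LPS. Summed over the 10 genes, the level was 5464 and 5471 TPM in NC, 8087 and 8320 TPM in LPS, 6885 and 6232 TPM in C498, and 8279 and 7500.0 TPM in C498+LPS. Prdx1 and Sqstm1 together made up 67.2% to 80.1% of that sum.

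**Figure D1:**
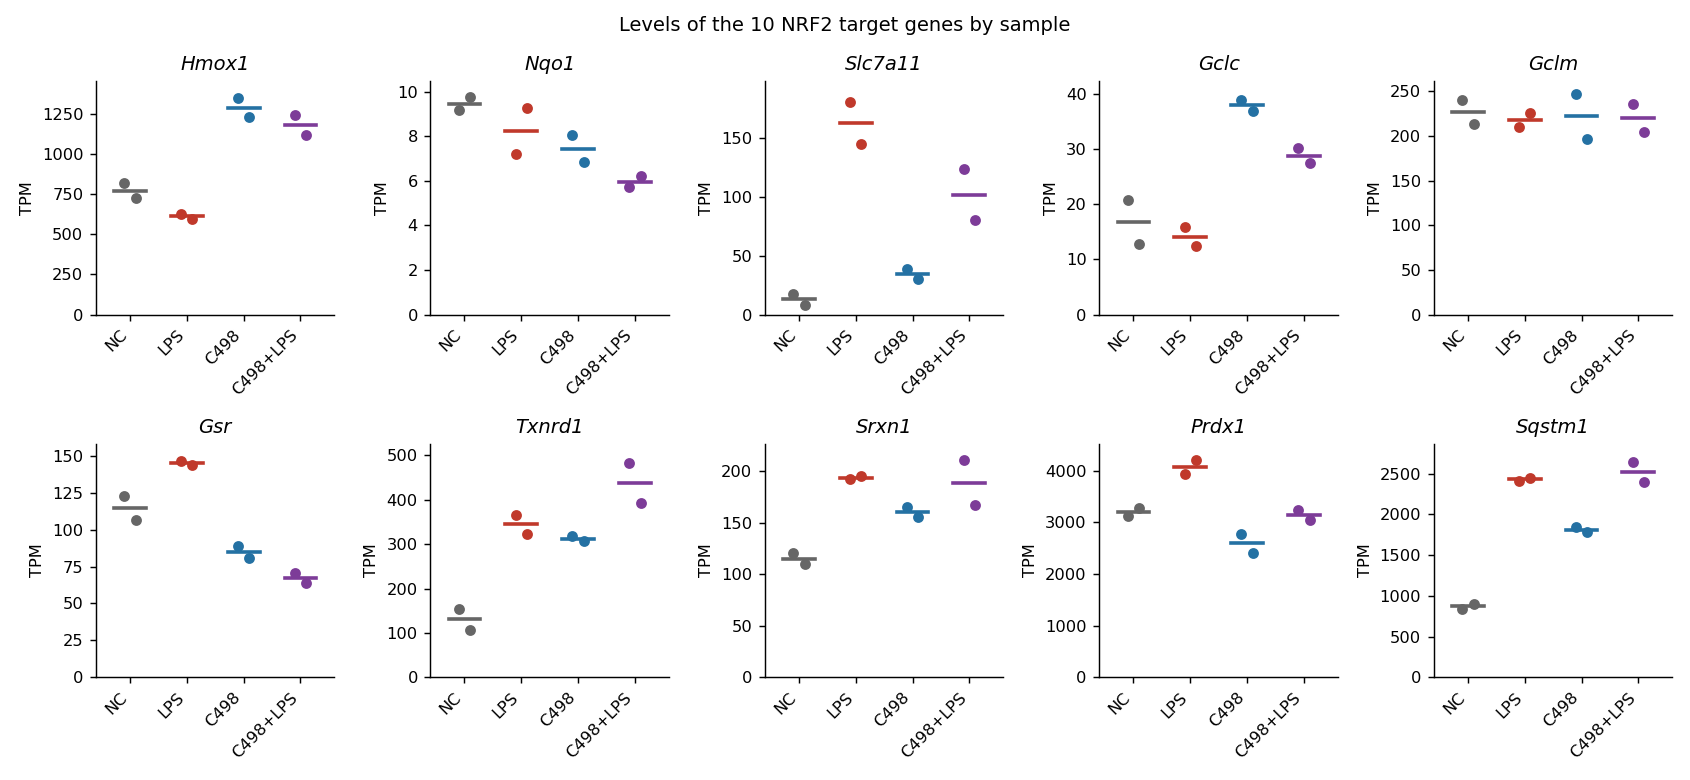
Level in TPM (vertical axis, from 0) of each of the 10 genes in the 4 groups (horizontal axis). Points are the 2 samples of a group and bars their mean. Hmox1 and Gclc are highest in the 2 groups with C498, Gclm sits between 197 and 247 TPM in all 8 samples, and Slc7a11 is highest in LPS.

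Changes below are differences of log2(TPM + 1) with their standard error (SE), from a limma fit of all 8 samples. The added 1 makes the change of a low gene look smaller than it is. A gene is said to have risen or fallen where its adjusted p was at most 0.05, and it is called where the fold change was also at least 2. Calls were recomputed under up to 17 alternative settings, and rises and falls under up to 16, because the fold threshold plays no part in them. In LPS vs NC, 3 of the 10 genes were called higher and 0 lower, and 5.55% of all tested genes were called higher and 6.68% lower. At any fold, 5 genes rose and 1 fell, beside 9.84% and 19.8% of all genes. In C498 vs NC, 4 genes were called higher and 0 lower, beside 5.64% and 1.36% of all genes. That count of 4 was 2 without NC replicate 2, 1 without either C498 sample and 1 with only the groups compared. At any fold, 6 rose and 1 fell, beside 9.29% and 6.19% of all genes. With all 8 samples fitted, the share of the 10 genes that was higher lay above that of all genes in both comparisons. These 2 comparisons use the same NC samples. No share of all genes is given for the fits with samples left out, so their lower counts cannot be called particular to the 10 genes.

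Against LPS alone, C498+LPS samples had 0 of the 10 genes called higher and 1 called lower, beside 5.39% and 2.18% of all genes. At any fold 2 rose and 2 fell, beside 9.08% and 7.7%. LPS in the presence of C498 (C498+LPS vs C498) gave 1 gene called higher and 0 lower, beside 2.52% and 3.13% of all genes. At any fold 2 rose and 0 fell, beside 4.51% and 11.7%. By limma at an unadjusted p under 0.05, 7 of the 10 genes passed in LPS vs NC and 8 in C498 vs NC, beside 41.2% and 32% of all genes. The counts were 5 in C498+LPS vs C498 and 4 in C498+LPS vs LPS, beside 31.9% and 31.2%, so both lay nearer to that background.

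The median log2 change of the 10 genes was 0.35 in LPS vs NC, 0.61 in C498 vs NC, 0.11 in C498+LPS vs C498 and -0.02 in C498+LPS vs LPS. The median of all tested genes in the same comparisons was -0.17, 0.01, -0.18 and 0.01. Of 79 medians of the 10 genes under alternatives, the interaction included, 3 lay 0.148 or more from the main value. That is the SD between replicates of a sample's median over the 10 genes. In C498+LPS vs C498 the 2 middle genes were Gclm (-0.006) and Srxn1 (0.22). Without C498+LPS replicate 1 they were at -0.11 and 0.05, so the sign of that median is not settled. Centring each sample on its median gene would raise every change by 0.17 in LPS vs NC, lower it by 0.12 in C498 vs NC, and raise it by 0.21 in C498+LPS vs C498. The share of higher calls among all called genes was 80.5% in C498 vs NC, 45.4% in LPS vs NC and 44.6% for LPS in the presence of C498. With centring these shares were 67.7%, 61.7% and 68.9%, and with quantile normalization 67.3%, 60.1% and 61.0%.

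**Figure D2:**
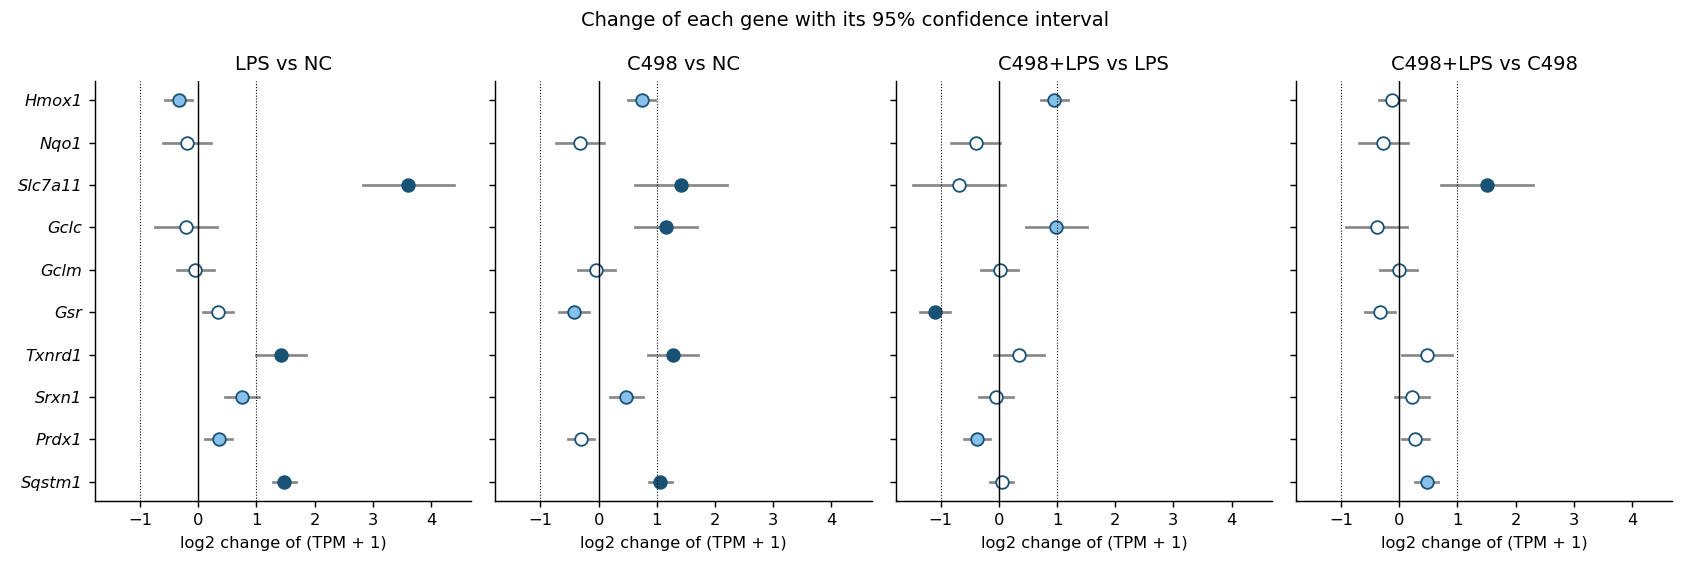
Log2 change of (TPM + 1) with its 95% confidence interval (horizontal axis) for the 10 genes (vertical axis) in 4 comparisons. Dark points are called, light blue points have an adjusted p of at most 0.05 at a smaller fold, and open points do not pass, with dotted lines at a fold change of 2. In C498 vs NC the dark points are Slc7a11, Gclc, Txnrd1 and Sqstm1, and in C498+LPS vs LPS the only dark point is Gsr.

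Libraries of a group were alike, with a Pearson correlation over the 12189 genes of 0.962 in NC, 0.981 in LPS, 0.970 in C498 and 0.971 in C498+LPS. The first NC sample lay above the second by a median of 0.20 on the log2 scale over all genes. Macrophage markers were high in every sample, with all 8 listed markers above a mean of 1 TPM and a summed level of 20099 to 20590.1 TPM in NC, 17938 to 18472 TPM in LPS, 15939 to 16075 TPM in C498 and 12420.4 to 14208 TPM in C498+LPS. The 6 fibroblast markers summed to 150.3 to 192 TPM in NC and 176 to 200.5 TPM in LPS, but to 633 to 750.0 TPM in C498 and 618 to 911 TPM in C498+LPS, with Lum at or near 0 throughout. The 4 mesothelial markers summed to 3.67 to 4.65 TPM in samples without C498 and to 12.7 to 21.4 TPM in those with it. Neutrophil markers, with Ngp at 0, summed to 82.3 to 135 TPM in samples without C498 and to 52.6 to 81.6 TPM in those with it. Eosinophil markers summed to 0.54 to 1.46 TPM with Epx at 0. Mast cell markers stood at 7.21 to 20.5 TPM, B cell markers at 3.41 to 12.5 TPM, T cell markers at 1.42 to 2.78 TPM and endothelial markers at 2.59 to 7.16 TPM. Most of the macrophage sum was Lyz2, at 12790 to 15989 TPM in samples without C498 and 7831 to 11579 TPM in those with it. Adgre1 was at 574 to 666 TPM in NC and 440 to 450 TPM in C498, and at 652 to 723 TPM in LPS and 323 to 408 TPM in C498+LPS. Fcgr1 was likewise lower in C498 (66.3 to 69.1 TPM) than in NC (107 to 145 TPM), and in C498+LPS (37.6 to 42.9 TPM) than in LPS (64.4 to 74.5 TPM). Csf1r was lower in C498 (208.9 to 249.4 TPM) than in NC (272 to 355 TPM), and in C498+LPS (89.9 to 117 TPM) than in LPS (182 to 208 TPM). Itgam was lower in C498+LPS (119 to 170 TPM) than in LPS (204 to 236 TPM) but overlapped between C498 and NC, and Mertk, at 12.4 to 23.7 TPM, overlapped in both. By contrast, Cd14 was at 235 to 252 TPM in NC, 1250 to 1352 TPM in LPS, 663 to 686 TPM in C498 and 1794 to 1797 TPM in C498+LPS. Cd68 overlapped between NC (2669 to 2913 TPM) and C498 (2802 to 2877 TPM). Most of the neutrophil sum was S100a8. By contrast, S100a9 and Ly6g were at 0 in every sample without C498 and at up to 0.86 and 2.62 TPM in those with it. The fibroblast and mesothelial sums, the neutrophil sum, Lyz2, Adgre1, Csf1r and Fcgr1 move with every C498 result below, and their part in those results was not tested. In such bulk samples, fewer cells of a type and less RNA per cell cannot be told apart.

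Heme and quinone enzymes come first. Hmox1 (ENSMUSG00000005413, chr8:75093621-75100589, plus strand, positions here and below from GENCODE M21 on GRCm38) encodes heme oxygenase-1, which breaks heme into biliverdin, iron and carbon monoxide. It was at 818 and 728 TPM in NC, 625 and 598 TPM in LPS, 1349 and 1229.5 TPM in C498, and 1244 and 1122 TPM in C498+LPS. The 4 samples with C498 were the 4 highest, and the 2 LPS samples were the lowest. Hmox1 rose with C498 by 0.74 (SE 0.10, adjusted p = 0.00445) without LPS, and by 0.95 (SE 0.10, adjusted p = 0.00155) in the presence of LPS, a 1.93-fold higher level that fell short of the fold threshold, which it passed without C498+LPS replicate 2 (1.02). LPS alone lowered it by 0.33 (log2 change -0.33, SE 0.10, adjusted p = 0.0397), but with each sample centred on its median gene that change was -0.17 with an adjusted p of 0.346. This fall did not pass in 9 of 16 alternatives, among them those without NC replicate 1 (-0.25) and without any LPS or C498 sample (-0.37 to -0.30). The rise with C498 in the absence of LPS was lost in 2, without C498 replicate 1 (0.67, adjusted p = 0.0571) and with only the groups compared (adjusted p = 0.0502). Between C498+LPS and C498 the samples overlapped and the change was -0.12 (95% interval -0.36 to 0.11).

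Nqo1 (ENSMUSG00000003849, chr8:107388225-107403206, minus strand) encodes a quinone reductase often used as a readout of NRF2. Its level was 9.16 and 9.78 TPM in NC, 7.20 and 9.28 TPM in LPS, 8.04 and 6.83 TPM in C498, and 5.73 and 6.20 TPM in C498+LPS. The 2 NC samples stood at or near the top and the 2 C498+LPS samples were the lowest, an order unlike that of Hmox1. No comparison passed the test for Nqo1. Its change was -0.31 (95% interval -0.73 to 0.10, adjusted p = 0.264) in C498 vs NC and -0.40 (95% interval -0.82 to 0.02, adjusted p = 0.177) in C498+LPS vs LPS, and both intervals leave out a rise of the size seen for Hmox1.

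The glutathione genes did not move as a unit. Slc7a11 (ENSMUSG00000027737, chr3:49892526-50443614, minus strand) encodes xCT, the cystine importer that feeds glutathione synthesis. It was at 17.4 and 8.54 TPM in NC, 180 and 144 TPM in LPS, 38.9 and 30.1 TPM in C498, and 123 and 79.9 TPM in C498+LPS. The LPS samples were the highest, those of C498+LPS came next, and no 2 groups overlapped. Slc7a11 rose with LPS by 3.61 (SE 0.34, adjusted p = 0.000396), a 12.2-fold higher level and the largest change among the 10 genes. It was also called in C498 vs NC, at 1.41 (SE 0.34, adjusted p = 0.0322). That call was lost in 10 of 17 alternatives, with an adjusted p of up to 0.195. Among them were those without NC replicate 2, the lowest sample (0.94), without C498 replicate 1 (1.23) or 2 (1.59), and without any LPS or C498+LPS sample, which left the change at 1.41.

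In C498+LPS, Slc7a11 was 1.51 (SE 0.34, adjusted p = 0.0253) above C498 alone, a call that 7 of 17 alternatives lost, among them those without any LPS, C498 or C498+LPS sample (1.20 to 1.82). Its change against LPS alone was -0.69 (95% interval -1.48 to 0.10, adjusted p = 0.214) and did not pass the test, although both C498+LPS samples lay below both LPS samples. Slc3a2, which encodes the heavy chain that pairs with xCT and is named here after its values were seen, was at 380 and 367 TPM in NC, 673 and 692 TPM in LPS, 636 and 608 TPM in C498, and 749 and 694 TPM in C498+LPS. It rose by 0.87 (SE 0.08, adjusted p = 0.000346) with LPS and by 0.73 (SE 0.08, adjusted p = 0.00168) with C498.

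Gclc and Gclm encode the catalytic and the modifier subunit of glutamate-cysteine ligase, the rate-limiting enzyme of glutathione synthesis. Gclc (ENSMUSG00000032350, chr9:77754535-77794485, plus strand) was at 20.8 and 12.8 TPM in NC, 15.8 and 12.3 TPM in LPS, 38.9 and 36.8 TPM in C498, and 30.1 and 27.4 TPM in C498+LPS. As for Hmox1, the 4 samples with C498 were above the 4 without it. Gclc was called higher in C498 vs NC, at 1.16 (SE 0.22, adjusted p = 0.0170), and it rose by 0.99 (SE 0.22, adjusted p = 0.0259) in C498+LPS vs LPS. The first of these calls was lost in 4 of 17 alternatives, among them those without NC replicate 2 (0.83), without C498 replicate 1 (1.12) and without C498 replicate 2 (1.20). The rise in the presence of LPS was lost in 7 of 16 alternatives, with no filter on low values (adjusted p = 0.0692), without LPS replicate 1 (1.16) or 2 (0.82), without C498+LPS replicate 1 (0.92) or 2 (1.05) and without either C498 sample (0.99), with adjusted p-values of up to 0.163. It was called, at 1.03, with a pseudocount of 0.1. With LPS alone the change of Gclc was -0.21 (95% interval -0.74 to 0.32), with overlapping samples.

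Gclm (ENSMUSG00000028124, chr3:122245557-122270732, plus strand) stood in contrast to its partner. It was at 240.1 and 213 TPM in NC, 209.6 and 226 TPM in LPS, 247 and 197 TPM in C498, and 236 and 204 TPM in C498+LPS. The samples of all 4 groups overlapped. The change in C498 vs NC was -0.04 (95% interval -0.36 to 0.28), and in C498+LPS vs LPS it was 0.01 (95% interval -0.31 to 0.33), so a rise of the size measured for Gclc lay outside both intervals. The exons of Gclm overlap those of Gm17494 on the opposite strand, which was at 1.82 to 5.52 TPM, and whether counting used strand is not given in the sources used here.

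Gsr (ENSMUSG00000031584, chr8:33652523-33698163, plus strand) encodes glutathione reductase, which returns oxidized glutathione to its reduced form. It was at 123 and 106 TPM in NC, 146 and 144 TPM in LPS, 88.9 and 81.1 TPM in C498, and 70.7 and 63.9 TPM in C498+LPS. The 4 samples with C498 were the lowest, and no 2 groups overlapped. Gsr fell with C498 by 0.42 (log2 change -0.42, SE 0.11, adjusted p = 0.0418) without LPS, a fall lost in 10 of 16 alternatives, among them those without NC replicate 1 (-0.32), without C498 replicate 1 (-0.49) or 2 (-0.36) and without any LPS or C498+LPS sample (-0.42). In the presence of LPS it was called lower, at -1.10 (SE 0.11, adjusted p = 0.00138), a level 2.14-fold below that of LPS alone and the only call among the 10 genes in that comparison. Under quantile normalization that change was -0.97, short of the fold threshold. The change of Gsr with LPS alone was 0.34 (SE 0.11, adjusted p = 0.052), and it passed with centring on the median gene (0.51, adjusted p = 0.0103), with a mean of at least 5 TPM (adjusted p = 0.0452) and without NC replicate 1 (0.45, adjusted p = 0.0259). Its change in C498+LPS vs C498 was -0.33 (adjusted p = 0.0813), which passed without NC replicate 1 (adjusted p = 0.0416) or 2 (adjusted p = 0.0418).

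In the thioredoxin system, Txnrd1 (ENSMUSG00000020250, chr10:82833951-82897712, plus strand) encodes cytosolic thioredoxin reductase. It was at 155 and 106 TPM in NC, 367 and 323 TPM in LPS, 317 and 308 TPM in C498, and 483 and 394 TPM in C498+LPS. All treated samples lay above the NC samples. Txnrd1 was called higher with LPS, at 1.42 (SE 0.18, adjusted p = 0.00169), and with C498, at 1.28 (SE 0.18, adjusted p = 0.00574), the latter call lost in 3 of 17 alternatives, which include those without C498 replicate 1 (1.25) or 2 (1.30). The C498+LPS samples were the highest, yet the change was 0.34 (95% interval -0.09 to 0.77, adjusted p = 0.258) against LPS and 0.48 (95% interval 0.05 to 0.91, adjusted p = 0.120) against C498, and neither passed. The change against C498 did pass with centring on the median gene (0.69, adjusted p = 0.014) and without NC replicate 1 (adjusted p = 0.0399) or 2 (adjusted p = 0.0397).

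Srxn1 (ENSMUSG00000032802, chr2:152105516-152111376, plus strand) encodes sulfiredoxin, which repairs peroxiredoxins that peroxide has overoxidized. It was at 120.3 and 109.9 TPM in NC, 192 and 195 TPM in LPS, 166 and 156 TPM in C498, and 211 and 167 TPM in C498+LPS. Again the NC samples were the lowest. Srxn1 rose with LPS by 0.75 (SE 0.12, adjusted p = 0.00447) and with C498 by 0.48 (SE 0.12, adjusted p = 0.0414), both below the fold threshold, and with centring on the median gene the second was 0.36 with an adjusted p of 0.101. The rise with C498 was lost in 9 of 16 alternatives, among them those without NC replicate 2 (0.41), without C498 replicate 1 (0.44) or 2 (0.52) and without either LPS sample (0.48). C498+LPS overlapped with LPS, at a change of -0.05 (95% interval -0.34 to 0.24).

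Prdx1 (ENSMUSG00000028691, chr4:116685544-116700822, plus strand) encodes a peroxiredoxin that removes hydrogen peroxide and is a substrate of sulfiredoxin. It was at 3120.2 and 3276 TPM in NC, 3932 and 4216 TPM in LPS, 2783 and 2408 TPM in C498, and 3234 and 3044 TPM in C498+LPS. The LPS samples were the highest and the C498 samples the lowest. Prdx1 rose with LPS by 0.35 (SE 0.10, adjusted p = 0.0336) and fell in C498+LPS vs LPS by 0.38 (log2 change -0.38, SE 0.10, adjusted p = 0.0394), and with centring these changes were larger, at 0.52 and -0.45, with an adjusted p of 0.0769 and 0.130. The rise was lost in 12 of 16 alternatives, those without any 1 of the 8 samples among them (0.30 to 0.40). The fall was lost in 10, among them those without any LPS, C498 or C498+LPS sample (-0.43 to -0.33). Its change in C498 vs NC was -0.30 (SE 0.10, adjusted p = 0.0779). Of the 50-base words in Prdx1 transcripts, 8.99% also occur in other genes, mainly Gm21399 and Gm7204, both listed at 0 in every sample.

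Sqstm1 (ENSMUSG00000015837, chr11:50199366-50210827, minus strand) encodes p62, an autophagy receptor that can also bind KEAP1 and take it away from NRF2. It was at 840.5 and 900.5 TPM in NC, 2412 and 2452 TPM in LPS, 1849 and 1779 TPM in C498, and 2641 and 2392 TPM in C498+LPS. NC was lowest, C498 intermediate, and LPS and C498+LPS overlapped at the top. Sqstm1 was called higher with LPS, at 1.48 (SE 0.08, adjusted p = 4.34e-05), and with C498, at 1.06 (SE 0.08, adjusted p = 0.000501). Centring on the median gene gave 0.94 with C498, short of the fold threshold, so that call was lost. In the presence of C498, LPS raised it by 0.47 (SE 0.08, adjusted p = 0.0121), a rise lost with quantile normalization (0.31, adjusted p = 0.0522), without C498 replicate 1 (0.50) or 2 (0.44) and without C498+LPS replicate 1 (0.40). C498+LPS was 0.05 (95% interval -0.15 to 0.24) above LPS. Of its 50-base words, 18.3% occur in Mrnip on the opposite strand, which stood at 0 to 1.85 TPM.

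Whether LPS acted alike with and without C498 was asked of each gene by an interaction term. This term, which is the LPS change in the presence of C498 minus the LPS change in its absence, was called lower for 1 of the 10 genes and higher for 0. Over all genes 0.394% were called lower and 0.0738% higher. Without the fold threshold the counts of the 10 genes were also 1 and 0, beside 0.418% and 0.0738%. The called gene was Sqstm1, at -1.01 (SE 0.12, adjusted p = 0.0243), and this call was lost in 10 of 16 alternatives, over all of which the value ran from -1.12 to -0.94. It held only without NC replicate 2 when single samples were left out. For Slc7a11 the term was -2.10 (SE 0.47, adjusted p = 0.155), for Txnrd1 -0.94 (SE 0.26, adjusted p = 0.252), for Gsr -0.68 (SE 0.15, adjusted p = 0.156) and for Srxn1 -0.53 (SE 0.17, adjusted p = 0.341), none of which passed. The term of Slc7a11 passed only in the limma fit with the replicate number as a block (adjusted p = 0.017). Whether samples of a number belong together is not known. For Hmox1, Gclc, Gclm, Nqo1 and Prdx1 the 95% interval of the term included 0. At an unadjusted p under 0.05, 5 of the 10 genes passed, beside 11.1% of all genes.

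**Figure D3:**
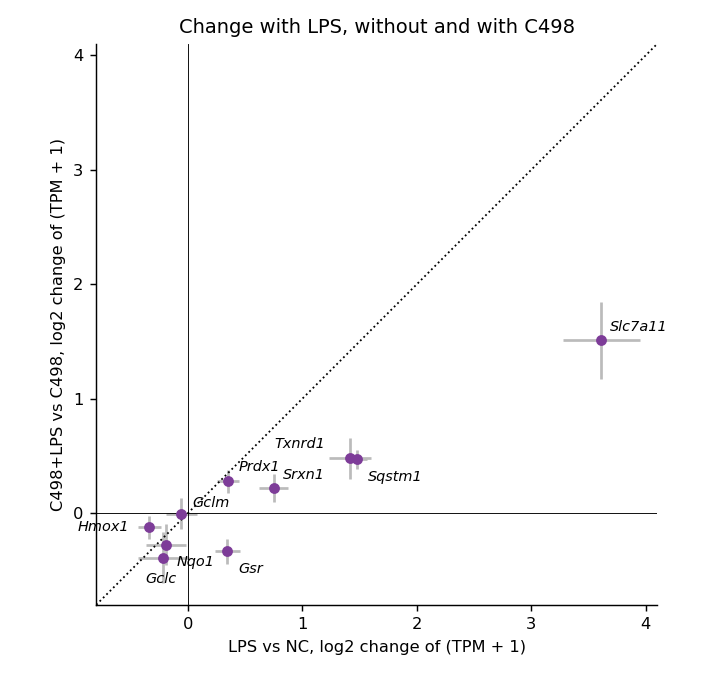
Log2 change of (TPM + 1) with LPS in the absence of C498 (LPS vs NC, horizontal axis) and in its presence (C498+LPS vs C498, vertical axis) for the 10 genes, with bars of 1 SE on each side. Genes on the dotted line would change alike in both. Slc7a11, Txnrd1 and Sqstm1 lie furthest below the line, and Gclm lies near 0 on both axes.

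Ratios between genes within a sample do not depend on how samples are scaled to each other. They were chosen after the values were seen and are given as a description. The ratio of Gclc to Gclm was 0.0867 and 0.0602 in NC, 0.0756 and 0.0545 in LPS, 0.158 and 0.187 in C498, and 0.127 and 0.134 in C498+LPS. Thus the TPM of the catalytic subunit stayed below that of the modifier in every sample, and their ratio was higher in all 4 samples with C498. The ratio of Txnrd1 to Gsr, the reductases of the thioredoxin and glutathione systems, was 1.26 and 1.00 in NC, 2.50 and 2.24 in LPS, 3.57 and 3.79 in C498, and 6.83 and 6.16 in C498+LPS. No groups overlapped, with NC lowest, LPS and C498 between, and C498+LPS highest. The ratio of Srxn1 to Prdx1 was 0.0385 and 0.0335 in NC, 0.0489 and 0.0463 in LPS, 0.0595 and 0.0647 in C498, and 0.0652 and 0.0548 in C498+LPS.

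**Figure D4:**
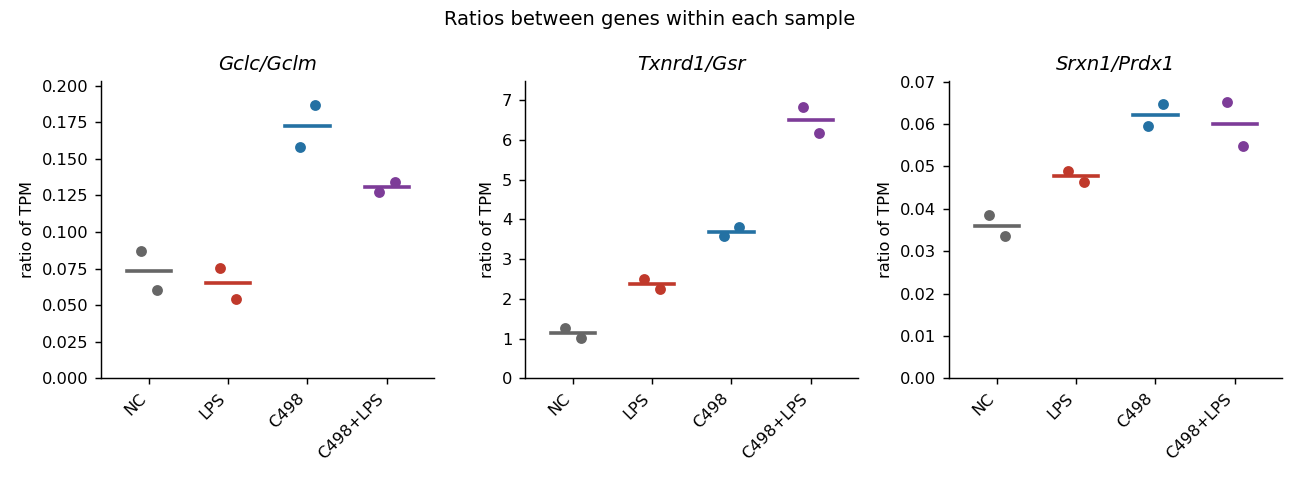
Ratio of the TPM of the named gene pairs within each sample (vertical axis, from 0) in the 4 groups (horizontal axis). Points are samples and bars the mean of the group. The ratio of Txnrd1 to Gsr is near 1 in NC and above 6 in C498+LPS, without overlap between groups.

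Over the 8 samples the levels of the 10 genes followed each other only in part. Of 45 pairs, 7 had a Pearson correlation of log2(TPM + 1) above 0.8, namely the 6 pairs among Txnrd1, Srxn1, Slc7a11 and Sqstm1 (0.869 to 0.961) and the pair of Hmox1 and Gclc (0.957). The lowest value was -0.877, between Hmox1 and Gsr, and the median was 0.115. These are descriptions over 8 samples that share treatments, and carry no p. Among 3409 genes with an SD of at least 0.5, Hmox1 was most like Chka (0.992), Irs2 (0.991) and Trp53inp1 (0.988), and Slc7a11, over 3408 genes, most like Cd274 (0.994), Nfkbie (0.993) and Met (0.992). For Gclm the most alike genes reached only 0.853 (Gm10163), 0.847 (Snora73b, listed at 0 in 5 samples) and 0.738 (Ppp1ccb).

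Regulators of the pathway were taken as a list of 12 genes, all tested, with a median change of 0.25 in LPS vs NC and 0.24 in C498 vs NC. Of the 12, 2 were called higher and 0 lower with either agent, beside 5.55% and 6.68% of all genes with LPS and 5.64% and 1.36% with C498. Nfe2l2 itself was at 148 and 114 TPM in NC, 145 and 136 TPM in LPS, 166 and 154 TPM in C498, and 173 and 145 TPM in C498+LPS. Its level did not pass the test in any comparison. Keap1, which holds NRF2 in check, was at 49.4 and 45.1 TPM in NC, 55.7 and 54.6 TPM in LPS, 34.8 and 35.7 TPM in C498, and 29.1 and 25.7 TPM in C498+LPS. It fell with C498 by 0.41 (log2 change -0.41, SE 0.11, adjusted p = 0.0461) without LPS and by 0.99 (log2 change -0.99, SE 0.11, adjusted p = 0.00191) in its presence, and the 4 samples with C498 were the lowest. The first of these falls was lost in 11 of 16 alternatives, those without any 1 of the 8 samples among them (-0.48 to -0.35).

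Small MAF proteins are the partners that NRF2 needs to bind DNA, and those called were Maff and Mafk. Maff was at 5.61 and 6.08 TPM in NC, 36.5 and 32.0 TPM in LPS, 44.4 and 42.6 TPM in C498, and 77.0 and 70.8 TPM in C498+LPS. It was called higher with LPS (2.36, SE 0.12, adjusted p = 2.75e-05), with C498 (2.70, SE 0.12, adjusted p = 3.94e-05) and in C498+LPS vs LPS (1.09, SE 0.12, adjusted p = 0.00188). Mafk was at 25.4 and 24.3 TPM in NC, 62.3 and 62.2 TPM in LPS, 63.0 and 60.7 TPM in C498, and 76.8 and 71.4 TPM in C498+LPS, and was called higher with LPS (1.29, SE 0.09) and with C498 (1.28, SE 0.09). For both the interaction was called lower, at -1.61 (SE 0.17, adjusted p = 0.019) for Maff and -1.03 (SE 0.13, adjusted p = 0.0318) for Mafk. Of 16 alternatives, 7 lost this call for Maff and 10 for Mafk, among them those without any 1 LPS, C498 or C498+LPS sample (-1.71 to -1.52 for Maff, adjusted p of up to 0.113, and -1.09 to -0.98 for Mafk, adjusted p of up to 0.185). Mafg, the third, was at 41.5 to 66.2 TPM and did not pass.

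Bach1, a repressor that competes with NRF2 at heme-responsive elements, was at 24.0 and 11.3 TPM in NC, 12.7 and 8.69 TPM in LPS, 34.7 and 32.3 TPM in C498, and 21.8 and 18.3 TPM in C498+LPS, and did not pass the test. Its 2 NC samples lay apart, and that of NC replicate 2 was below both C498+LPS samples. Bach2 was at 33.3 TPM in 1 NC sample and at 0.02 to 1.89 TPM in the other 7. Nfe2l1, a relative of Nfe2l2, rose with LPS by 0.62 (SE 0.14, adjusted p = 0.0141), though not without LPS replicate 1 (0.53, adjusted p = 0.0963). Cul3 (59.0 to 113 TPM), Rbx1 (87.7 to 161 TPM), Btrc (5.88 to 9.59 TPM) and Gsk3b (8.01 to 24.2 TPM), which take part in the degradation of NRF2, did not pass.

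**Figure D5:**
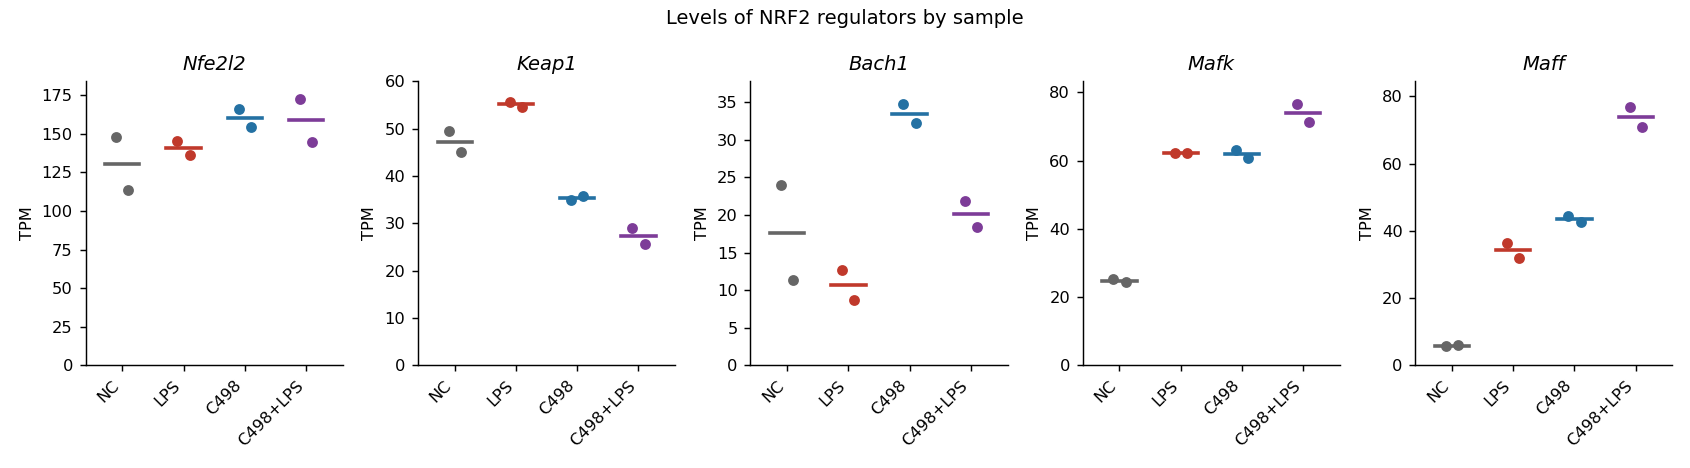
Level in TPM (vertical axis, from 0) of 5 regulators of NRF2 activity in the 4 groups (horizontal axis). Points are the 2 samples of a group and bars their mean. Keap1 is lowest in the 4 samples with C498, Mafk and Maff are lowest in NC, and the NC and LPS samples of Nfe2l2 overlap.

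Other known NRF2 targets were counted in 4 lists that together name 44 genes, of which 35 were tested. In C498 vs NC, 0 of the 35 were called in either direction, beside 7% of all genes. By limma at an unadjusted p under 0.05, 19 passed, beside 32% of all genes. At an adjusted p of at most 0.05 1 rose and 8 fell, beside 9.29% and 6.19% of all genes, so more fell than rose, whereas more of the 10 genes rose than fell. In LPS vs NC 1 was called higher and 2 lower, beside 5.55% and 6.68% of all genes, while at any fold 1 rose and 15 fell, beside 9.84% and 19.8%. In C498+LPS vs LPS 0 were called higher and 1 lower, beside 5.39% and 2.18%, while 0 rose and 10 fell, beside 9.08% and 7.7%, with 15 passing at an unadjusted p under 0.05, beside 31.2%. Their median log2 change was -0.24 in C498 vs NC, -0.17 in C498+LPS vs LPS and -0.30 in LPS vs NC, beside 0.01, 0.01 and -0.17 for all genes.

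The called genes of these lists were few. Abcc1, an exporter of glutathione conjugates among 14 tested genes of conjugation and export, rose with LPS by 1.23 (SE 0.26, adjusted p = 0.0118). Idh1, an NADPH-producing dehydrogenase among 6 genes of NADPH supply, fell with LPS by 2.41 (log2 change -2.41, SE 0.11, adjusted p = 1.71e-05) and with C498 by 0.65 (log2 change -0.65, SE 0.11, adjusted p = 0.0103), the latter not without C498 replicate 1 or 2 (-0.65 in each case). Of 7 tested genes of heme and iron handling none was called with either agent, beside 12.2% of all genes with LPS and 7% with C498. At any fold 5 of the 7 fell with LPS and 3 with C498, beside 19.8% and 6.19% of all genes. With C498, Slc48a1 (-0.60, adjusted p = 0.00556), Blvra (-0.61, adjusted p = 0.00656) and Blvrb (-0.35, adjusted p = 0.0474), all named after their values were seen, fell at a smaller fold while Hmox1 rose. Blvra encodes a reductase that acts on the biliverdin made by heme oxygenase. Without C498 replicate 1 or 2 the falls of Slc48a1 (-0.63 and -0.58) and Blvra (-0.611 and -0.605) were lost. That of Blvrb was lost in 11 of 16 alternatives, among them those without any 1 sample other than NC replicate 1 (-0.38 to -0.28). Osgin1 fell with LPS by 1.12 (log2 change -1.12, SE 0.20, adjusted p = 0.00621). Marco, a scavenger receptor named after its values were seen, was called lower in C498+LPS vs LPS at -1.36 (SE 0.19, adjusted p = 0.00405).

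In the wider glutathione list, 12 of 15 genes were tested, with a median change of 0.10 with C498 and -0.04 with LPS. Gpx8, a peroxidase of the endoplasmic reticulum, was called higher in C498 vs NC at 1.19 (SE 0.27, adjusted p = 0.0287), 1 of 12 beside 5.64% of all genes and a call lost in 8 of 17 alternatives, and no gene of the list was called with LPS, where 5 passed at an unadjusted p under 0.05, beside 41.2% of all genes. Against LPS alone, C498+LPS had 2 of 12 called higher beside 5.39% of all genes, Gpx8 at 1.55 (SE 0.27) and Gpx7, named after its values were seen, at 1.13 (SE 0.27). The list of thioredoxin and peroxiredoxin genes had 15 tested members, with a median change of -0.20 with C498 and -0.34 with LPS. With C498 Sesn3 (1.11, SE 0.24) and Sesn2 (1.04, SE 0.18), which encode sestrins, were called higher, and Txnip (-1.03, SE 0.10), which encodes an inhibitor of thioredoxin, was called lower, which makes 2 and 1 of 15 beside 5.64% and 1.36% of all genes. With LPS Sesn1 (-1.94, SE 0.22) and Msrb1 (-1.40, SE 0.09), a methionine sulfoxide reductase, were called lower, 2 of 15 beside 6.68% of all genes. In C498+LPS vs LPS Txnip was again called lower, at -1.36 (SE 0.10, adjusted p = 0.000598), 1 of 15 beside 2.18%.

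Genes that make or remove reactive oxygen and nitrogen species gave 1 call of 11 in either agent's comparison with NC, beside 12.2% of all genes with LPS and 7% with C498, with a median change of -0.25 with C498 and 0.07 with LPS. Nos2, the inducible nitric oxide synthase, rose by 4.98 (SE 0.17, adjusted p = 4.24e-06) with LPS and by 1.61 (SE 0.17, adjusted p = 0.00148) with C498, with an interaction of -1.95 (SE 0.24, adjusted p = 0.0262). The call of the interaction was lost in 9 of 16 alternatives, among them those without NC replicate 2 (-1.90) and without any 1 LPS, C498 or C498+LPS sample (-2.17 to -1.72, adjusted p of 0.0502 to 0.171). In C498+LPS vs LPS Ncf1, a subunit of the phagocyte NADPH oxidase named after its values were seen, was called lower at -1.16 (SE 0.11, adjusted p = 0.00122), 1 of 11 beside 2.18% of all genes. Among 12 autophagy partners of Sqstm1, Atg7 was called lower with LPS at -1.13 (SE 0.18, adjusted p = 0.00383), a count near the background of 6.68% of all genes, and with C498 none was called and 5 passed at an unadjusted p under 0.05, beside 32% of all genes. The median change of that list was 0.29 with C498 and -0.37 with LPS.

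ATF4 and CHOP, transcription factors of the amino acid and endoplasmic reticulum stress response, also act on Slc7a11, and a list of 17 genes, made up of both factors and known targets of theirs, was counted for that reason. With C498 7 of the 17 were called higher and 0 lower, beside 5.64% and 1.36% of all genes, and 11 passed at an unadjusted p under 0.05, beside 32%. The number called was 4 without NC replicate 2, 3 without either C498 sample, 4 with a mean of at least 5 TPM or with only the groups compared, and 5 with centring on the median gene or with quantile normalization. The largest changes were those of Ppp1r15a (2.25, SE 0.17, adjusted p = 0.000433), Ddit4 (2.21, SE 0.18, adjusted p = 0.000518) and Cth (1.66, SE 0.26, adjusted p = 0.00846). Cth was low, at a mean of 0.535 TPM in NC and 3.855 TPM in C498. Of the 17, 10 were not called. Among these, named after their values were seen, were Asns, Trib3 and Phgdh. Their means were 36.9, 17.3 and 63.3 TPM in NC and 35.0, 13.1 and 60.95 TPM in C498. With LPS 1 was called higher, Ppp1r15a at 1.14 (SE 0.17, adjusted p = 0.00322), a count at the background of 5.55% of all genes. Of the same 17, C498+LPS vs LPS had 4 called higher, Ddit4 at 2.34 (SE 0.18), Cth at 1.64 (SE 0.26) and, named after their values were seen, Vldlr at 1.44 (SE 0.24) and Aldh1l2 at 1.19 (SE 0.27), beside 5.39% of all genes. That number was 2 without LPS replicate 2, 7 without C498+LPS replicate 1 or with a pseudocount of 0.1, and 1 with a mean of at least 5 TPM. No share of all genes is given for these settings, so the shifts of either number cannot be called particular to the list. Vldlr and Aldh1l2 were low, at means of 0.295 and 0.695 TPM in LPS and 2.505 and 2.92 TPM in C498+LPS. The list's median change was 0.55 with C498, 0.04 with LPS and 0.88 in C498+LPS vs LPS, beside medians of all genes of 0.01, -0.17 and 0.01.

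Several calls of these listed genes rested on the scaling, on the samples fitted or on 1 library. With centring on the median gene, Sesn3 (0.99) and Sesn2 (0.92) were no longer called in C498 vs NC, nor were Osgin1 (-0.95) and Atg7 (-0.97) in LPS vs NC. Quantile normalization ended the same 4 calls (0.82, 0.97, -0.87 and -0.99) and that of Gpx7 in C498+LPS vs LPS (0.996). With only the groups compared, the adjusted p was 0.0599 for Sesn3, 0.0646 for Sesn2 and 0.104 for Gpx8 in C498 vs NC, 0.0603 for Osgin1 and 0.0667 for Abcc1 in LPS vs NC, and 0.0713 for Gpx7 in C498+LPS vs LPS. Without NC replicate 2, Abcc1 (0.85) and Ppp1r15a (0.97) were no longer called in LPS vs NC, nor were Sesn2 (0.88) and Sesn3 (1.02) in C498 vs NC. Without NC replicate 1, Osgin1 (-0.89) and Atg7 (-0.998) lost their calls with LPS. Without LPS replicate 1 the call of Abcc1 (1.08) was lost, and without LPS replicate 2 those of Osgin1 (-1.05), Ppp1r15a (0.98) and Atg7 (-0.94). Without C498 replicate 1 or 2, Sesn2 (0.97 and 1.11), Sesn3 (1.24 and 0.98) and Cth (1.63 and 1.70) were not called in C498 vs NC. Gpx8 lost its C498 call without any 1 of the NC, LPS or C498 samples (0.885 to 1.503). In C498+LPS vs LPS, Gpx7 (0.79), Gpx8 (1.25) and Aldh1l2 (0.96) lost theirs without C498+LPS replicate 2, and Maff (0.996) and Vldlr (1.33) without LPS replicate 2. Without either LPS sample the calls of Gpx7, Gpx8, Cth and Aldh1l2 there were lost too, at changes of 1.06 to 1.66, as was that of Gpx7 without either C498 sample and that of Aldh1l2 without C498 replicate 2, at values that did not move.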

How the data were processed

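RNA of 8 samples in 4 groups of 2 was measured. Reads were trimmed (fastp), aligned (HISAT2), assembled into transcripts (StringTie) and quantified per gene (RSEM) by the authors. Versions, genome build and annotation are not given in the sources used here. The authors deposited TPM per gene and sample with 2 decimals, which sum to the same total in each sample, so the depth is unknown and precision rests on the replicate differences. The group means that the authors added to the table, and their tests of counts with DESeq2, were not used here.

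Genes with a mean of at least 1 TPM (12189 of 55801) were tested on log2(TPM + 1) with limma 3.58.1 in R 4.3.3, fitting the 4 group means to all 8 samples together, with variance moderation that follows mean expression. P-values were adjusted by Benjamini and Hochberg's procedure over the tested genes of each of the 5 comparisons. The call thresholds, a fold change of 2 or more with an adjusted p of 0.05 or less, are those of the study. An exact permutation test of 2 against 2 samples cannot go below a two-sided p of 0.333, so no single value was tested that way. The fit was tested on simulated data.

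The 10 genes, the 10 further lists, the markers of 9 cell types and the rule for named genes were chosen with earlier results of these data known, so the lists carry no independent evidence. The rule names the 10 genes, all 12 regulators, and of each other list the 3 called genes with the largest change in C498 vs NC and in LPS vs NC, while exceptions are marked where they appear. Alternatives were a pseudocount of 0.1, no filter, a mean of at least 5 TPM, a fit without the other groups, quantile normalization, median centring, moderation without a trend, a block for the replicate number, calls on the adjusted p alone, and omission of each sample in turn. Positions were read from GENCODE M21 (GRCm38) by Ensembl identifier, and promoters from RefSeq (GRCm38.p6) by symbol, with other calculations in Python 3.11.15, numpy 2.4.6 and pandas 2.3.3 and figures in matplotlib 3.10.9.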

Additional observations from a re-analysis of the deposited data

Results flagged for a closer look

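The difference between the LPS response with C498 and that without it passed the thresholds for 4 of the genes named here. It was -1.011 for Sqstm1, the autophagy receptor p62, -1.034 for Mafk and -1.612 for Maff, the small MAF partners of NRF2, and -1.947 for Nos2, the inducible nitric oxide synthase, all on the log2(TPM + 1) scale. Of 16 alternatives, 10 lost the call for Sqstm1, 10 for Mafk, 7 for Maff and 9 for Nos2. All 4 genes were also called higher in C498 vs NC and in LPS vs NC.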

How the results depend on the processing

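Each alternative changed 1 choice. The number of the 10 genes called in LPS vs NC was 3, and 6 with no fold change threshold. In C498 vs NC it was 4, 7 with no fold change threshold and 1 with a fit of only the groups compared, and leaving out each sample in turn gave 1 to 4, with 2 without NC replicate 2 and 1 without either C498 sample. In C498+LPS vs LPS it was 1, 2 with a pseudocount of 0.1, 0 with quantile normalization and 4 with no fold change threshold, and leaving out each sample gave 1 to 2, with 2 without C498+LPS replicate 2. In C498+LPS vs C498 it was 1, 0 with no filter and 2 with no fold change threshold, and leaving out each sample gave 0 to 1, with 0 without any LPS, C498 or C498+LPS sample. For the interaction it was 1 and 0 with no filter, with median centring or with no variance trend, and leaving out each sample gave 0 to 1, with 1 only without NC replicate 2. In C498 vs NC, Slc7a11 also lost its call with no filter or with no variance trend, and Sqstm1 with median centring. No share of all genes is given for each alternative, so the shifts cannot be called particular to the 10 genes. Their cause was not tested. With the replicate number as a block the interaction was called for 2 genes, since Slc7a11 (-2.10) then had an adjusted p of 0.0170. The correlation of replicate deviations between groups was 0.0397 to 0.168. Replicate 1 was the higher sample for 7 of the 10 genes in NC, 5 in LPS, 10 in C498 and 9 in C498+LPS. With only 2 numbers, these values cannot settle whether samples of a number belong together, and the labels do not say. The block changed no other call of the 10 genes at a fold of 2. At any fold it also brought the adjusted p to 0.028 for Slc7a11 (-0.691) in C498+LPS vs LPS, 0.0342 for Txnrd1 and 0.0359 for Gsr in C498+LPS vs C498, and 0.0215 for Gsr in LPS vs NC. Signs turned only where no call was made. Quantile normalization gave 0.0323 for Nqo1 in LPS vs NC, 0.00963 for Gclm in C498 vs NC, and 0.0856 for Srxn1 and -0.0792 for Sqstm1 in C498+LPS vs LPS. Median centring gave 0.113, -0.0644 and 0.208 for Gclm in LPS vs NC, C498+LPS vs LPS and C498+LPS vs C498, -0.0287 for Sqstm1 in C498+LPS vs LPS and 0.0899 for Hmox1 in C498+LPS vs C498. Leaving out each sample gave -0.54 to 0.12 for Gclc in LPS vs NC, -0.22 to 0.12 for Srxn1 and -0.0236 to 0.119 for Sqstm1 in C498+LPS vs LPS. For Gclm it gave -0.140 to 0.0299 in LPS vs NC, -0.20 to 0.12 in C498 vs NC, -0.0933 to 0.117 in C498+LPS vs LPS, -0.17 to 0.15 in C498+LPS vs C498 and -0.11 to 0.21 for the interaction. The interaction ran from -0.248 to 0.0786 for Nqo1, from -0.50 to 0.15 for Gclc and from -0.176 to 0.0331 for Prdx1. Of 50 changes of the 10 genes, 20 passed on the adjusted p at any fold, of which 7 did so in every alternative, and 5 of the other 30 passed in at least 1. In 764 of 840 member values under alternatives the direction and the call were kept. Where an arm was left with 1 sample, that sample was assumed to vary like the other groups.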
